A study of Mus musculus with 16 samples.

Results

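Histone marks of mouse hematopoietic stem cells (HSCs) were followed at 9 genes that place, copy or remove DNA methylation or that act on a Polycomb mark, several of them mutated in clonal hematopoiesis. They were 9 of the 21853 protein-coding genes of the GENCODE M21 annotation (mm10). They were taken by name: the methyltransferases Dnmt1, Dnmt3a and Dnmt3b, the 5-methylcytosine dioxygenases Tet1, Tet2 and Tet3, the hemimethylated-DNA reader Uhrf1, and the pair Asxl1 and Bap1. For each gene every peak in the gene body and 5 kb on either side (the gene window) was collected, and promoters reached 1 kb to each side of the annotated protein-coding starts.

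The HSCs came from bone marrow of C57BL/6 mice, all female by the study's methods, that were 10 weeks old (young) or 20 months old (aged), with no allele or treatment in either group. They were sorted as Lin-, Sca-1+ and c-kit+ cells that lacked CD34, CD48, Flt3 and the IL-7 marker and carried CD150. Chromatin immunoprecipitation with sequencing (ChIP-seq) was done for H3K4me3, H3K27me3 and H2AK119ub1, with input chromatin beside them, in 16 libraries that formed 8 groups of 2. The deposited peaks were pooled into 6 lists, 1 for each mark and age, so no list had a replicate, no test between ages was possible, and each difference below is a difference between 2 lists. A gene without a listed peak is one at which the caller's threshold was not passed, which does not show that the mark was lacking.

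The H3K4me3 lists held 11371 peaks in young and 6723 in aged HSCs. For H3K27me3 they held 63142 and 20419 regions, and for H2AK119ub1 2593 and 17768. Of 10 HSC marker genes, among them Mecom, Hlf, Meis1 and Procr, 7 had promoter H3K4me3 in the young list and 7 in the aged list, and 6 had it in both; Ly6a and Slamf1, which encode the sorting markers Sca-1 and CD150, had it in neither. Of 10 markers of other blood cells 1 had a promoter H3K4me3 peak in the young list and 0 had one in the aged list.

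DNA methylation is written on cytosines of CpG dinucleotides. Dnmt3a and Dnmt3b place it on unmethylated DNA, Uhrf1 brings Dnmt1 to freshly replicated DNA so that the pattern is copied, and the TET enzymes oxidise the methyl group on the way to its removal. Mutations of DNMT3A, TET2 and ASXL1 are the commonest found in clonal hematopoiesis, the outgrowth in older people of blood cells from one mutated stem cell. ASXL1 is the cofactor of BAP1, the enzyme that takes ubiquitin off histone H2A at the lysine where Polycomb repressive complex 1 puts it. H3K27me3 is the mark of Polycomb repressive complex 2, and H3K4me3 marks active and poised promoters, mostly at CpG islands.

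The sequences under the peaks on which the comparison turned are given here, as 200 bp around the summit (for H2AK119ub1, around the centre) from the mm10 genome, on the strand of the gene and 5′ to 3′, with each CpG in capitals. The windows shown hold no annotated UTR. For Dnmt3a, on the plus strand, the 2 ages were marked at different start sites. The window of the young peak is chr12:3891179-3891378 and that of the aged peak chr12:3808079-3808278.
Dnmt3a, young: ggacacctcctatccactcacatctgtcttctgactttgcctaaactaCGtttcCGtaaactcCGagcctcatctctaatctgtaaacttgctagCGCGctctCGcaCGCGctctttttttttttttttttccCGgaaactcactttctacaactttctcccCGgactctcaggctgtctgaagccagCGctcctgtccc
Dnmt3a, aged: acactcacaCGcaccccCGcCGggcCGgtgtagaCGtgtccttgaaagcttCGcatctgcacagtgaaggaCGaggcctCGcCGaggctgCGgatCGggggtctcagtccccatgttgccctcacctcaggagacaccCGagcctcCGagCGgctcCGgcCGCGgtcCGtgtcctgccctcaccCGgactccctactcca
The aged window held 19 CpGs and 67.5% G and C, and the young window 11 CpGs and 49.0%. For Tet1 (chr10:62886598-62886797) and Tet2 (chr3:133544841-133545040), both on the minus strand, the windows are those of aged peaks with no young peak over them.
Tet1, aged: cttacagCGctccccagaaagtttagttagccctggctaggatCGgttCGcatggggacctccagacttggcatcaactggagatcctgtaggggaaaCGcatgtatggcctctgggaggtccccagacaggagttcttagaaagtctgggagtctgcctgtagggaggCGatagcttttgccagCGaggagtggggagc
Tet2, aged: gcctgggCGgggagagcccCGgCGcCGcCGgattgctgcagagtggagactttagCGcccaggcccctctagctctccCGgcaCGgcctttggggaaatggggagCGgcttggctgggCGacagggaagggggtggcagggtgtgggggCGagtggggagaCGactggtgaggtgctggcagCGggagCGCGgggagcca
They held 6 and 15 CpGs. For Tet3, on the minus strand, the windows of a young H3K4me3 peak (chr6:83455516-83455715) and an aged H2AK119ub1 region (chr6:83441998-83442197) are shown. Tet3 was the member with a Polycomb mark.
Tet3, young H3K4me3: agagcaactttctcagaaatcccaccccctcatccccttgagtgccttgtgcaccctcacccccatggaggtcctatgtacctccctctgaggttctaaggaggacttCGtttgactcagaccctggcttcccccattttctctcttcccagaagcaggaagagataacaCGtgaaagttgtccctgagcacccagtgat
Tet3, aged H2AK119ub1: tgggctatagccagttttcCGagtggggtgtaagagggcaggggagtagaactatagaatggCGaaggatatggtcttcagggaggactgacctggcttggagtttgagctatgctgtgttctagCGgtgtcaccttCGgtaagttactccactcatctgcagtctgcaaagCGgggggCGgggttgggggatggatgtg
The Tet3 H3K4me3 window, at Tet3-203, held 2 CpGs and the H2AK119ub1 window, at Tet3-202, held 6. The window of the H3K4me3 peak at Tet3-202, which overlaps a UTR and is not shown, held 11. For Asxl1, on the plus strand, the windows of both young peaks are shown, upstream (chr2:153345264-153345463) and downstream (chr2:153346611-153346810) of the start.
Asxl1, young, upstream: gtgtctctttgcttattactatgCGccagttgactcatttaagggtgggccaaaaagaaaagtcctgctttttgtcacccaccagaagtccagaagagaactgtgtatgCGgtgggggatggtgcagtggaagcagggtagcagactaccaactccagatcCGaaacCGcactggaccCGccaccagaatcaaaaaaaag
Asxl1, young, downstream: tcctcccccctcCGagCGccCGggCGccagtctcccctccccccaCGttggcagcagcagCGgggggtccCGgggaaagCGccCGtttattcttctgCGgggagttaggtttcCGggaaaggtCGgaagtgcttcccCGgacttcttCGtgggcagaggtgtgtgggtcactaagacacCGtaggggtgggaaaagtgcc
The upstream window held 5 CpGs and the downstream window 15. Over all H3K4me3 peaks the median was 8 CpGs in a window of this length in the young list and 9 in the aged list, and over the aged H2AK119ub1 regions it was 3.

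For 9 short motifs, searched on both strands, the windows of all peaks of the 9 genes were read, 13 young and 7 aged H3K4me3 windows and 3 aged H2AK119ub1 windows, whether shown here or not. The STAT motif (TTCNNNGAA) matched in 3 of the 13 young windows (Dnmt3a, Tet3 near Tet3-203 with 2 matches, and Asxl1 downstream) and in 1 of the 7 aged windows (Tet1), against 5.05% of all young and 4.63% of all aged H3K4me3 windows. An AP-1 motif (TGANTCA) matched in 2 of 13 young windows (Tet3 and the upstream Asxl1 window) and 0 of 7 aged windows, against 2.87% and 2.80% of all windows. The SP/KLF motif (GGGCGG) matched in 0 of 13 young and 2 of 7 aged windows (Tet2 and the peak near Kdm4b), against 21.5% and 24.8%, and in 1 of 3 H2AK119ub1 windows (7.94% of all aged regions). The NF-Y motif (CCAAT) matched in 2 of 13 young windows (Tet2 and Tet3 near Tet3-202) and 1 of 7 aged windows (Tet2), against 17.1% and 16.9%. The ETS motif (CCGGAAG) matched in 1 of 3 H2AK119ub1 windows, against 1.32% of all aged regions. It matched in none of the H3K4me3 windows, against 3.97% of all young and 4.27% of all aged windows. The CRE motif (TGACGTCA), the NF-E2 motif (GCTGAGTCA) that holds the letters of the AP-1 motif, and the E2F forms (TTTCGCGC and TTTGGCGC) had no match in any of the 23 windows. Each of these was rare over all windows of the same lists as well, with a match in 0.334% or fewer. A match is a run of letters and not a bound site.

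In young HSCs all 9 genes had an H3K4me3 peak at a promoter, against 34.3% of all protein-coding genes. In aged HSCs 4 of the 9 had one, Dnmt1, Dnmt3a, Tet1 and Tet2, against 23.7% of all genes. None of the 9 had promoter H3K4me3 in the aged list only. Over all genes 17.9% had it in both lists, 16.4% in the young list only and 5.81% in the aged list only. Of the young-marked genes 47.9% had no promoter peak in the aged list, beside 5 of these 9 (55.6%). The young peaks numbered 12 at promoters and 13 in the windows, the aged peaks 5 and 7. In the windows, H3K4me3 was found for 9 of 9 genes in the young list (40.6% of all genes) and for 5 of 9 in the aged list (29.0%), the added gene being Uhrf1. The 9 genes were long, with a median of 58.2 kb against 17.4 kb for all genes. Among the 14980 genes at least as long as the shortest of the 9, Bap1, the window shares were 47.3% and 34.4%. A promoter call could come from any start site, and the 9 genes had from 1 (Bap1) to 13 (Dnmt3a) of them. All 21853 genes together had 54361. The promoter shares were not matched for the number of start sites.

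**Figure D1:**
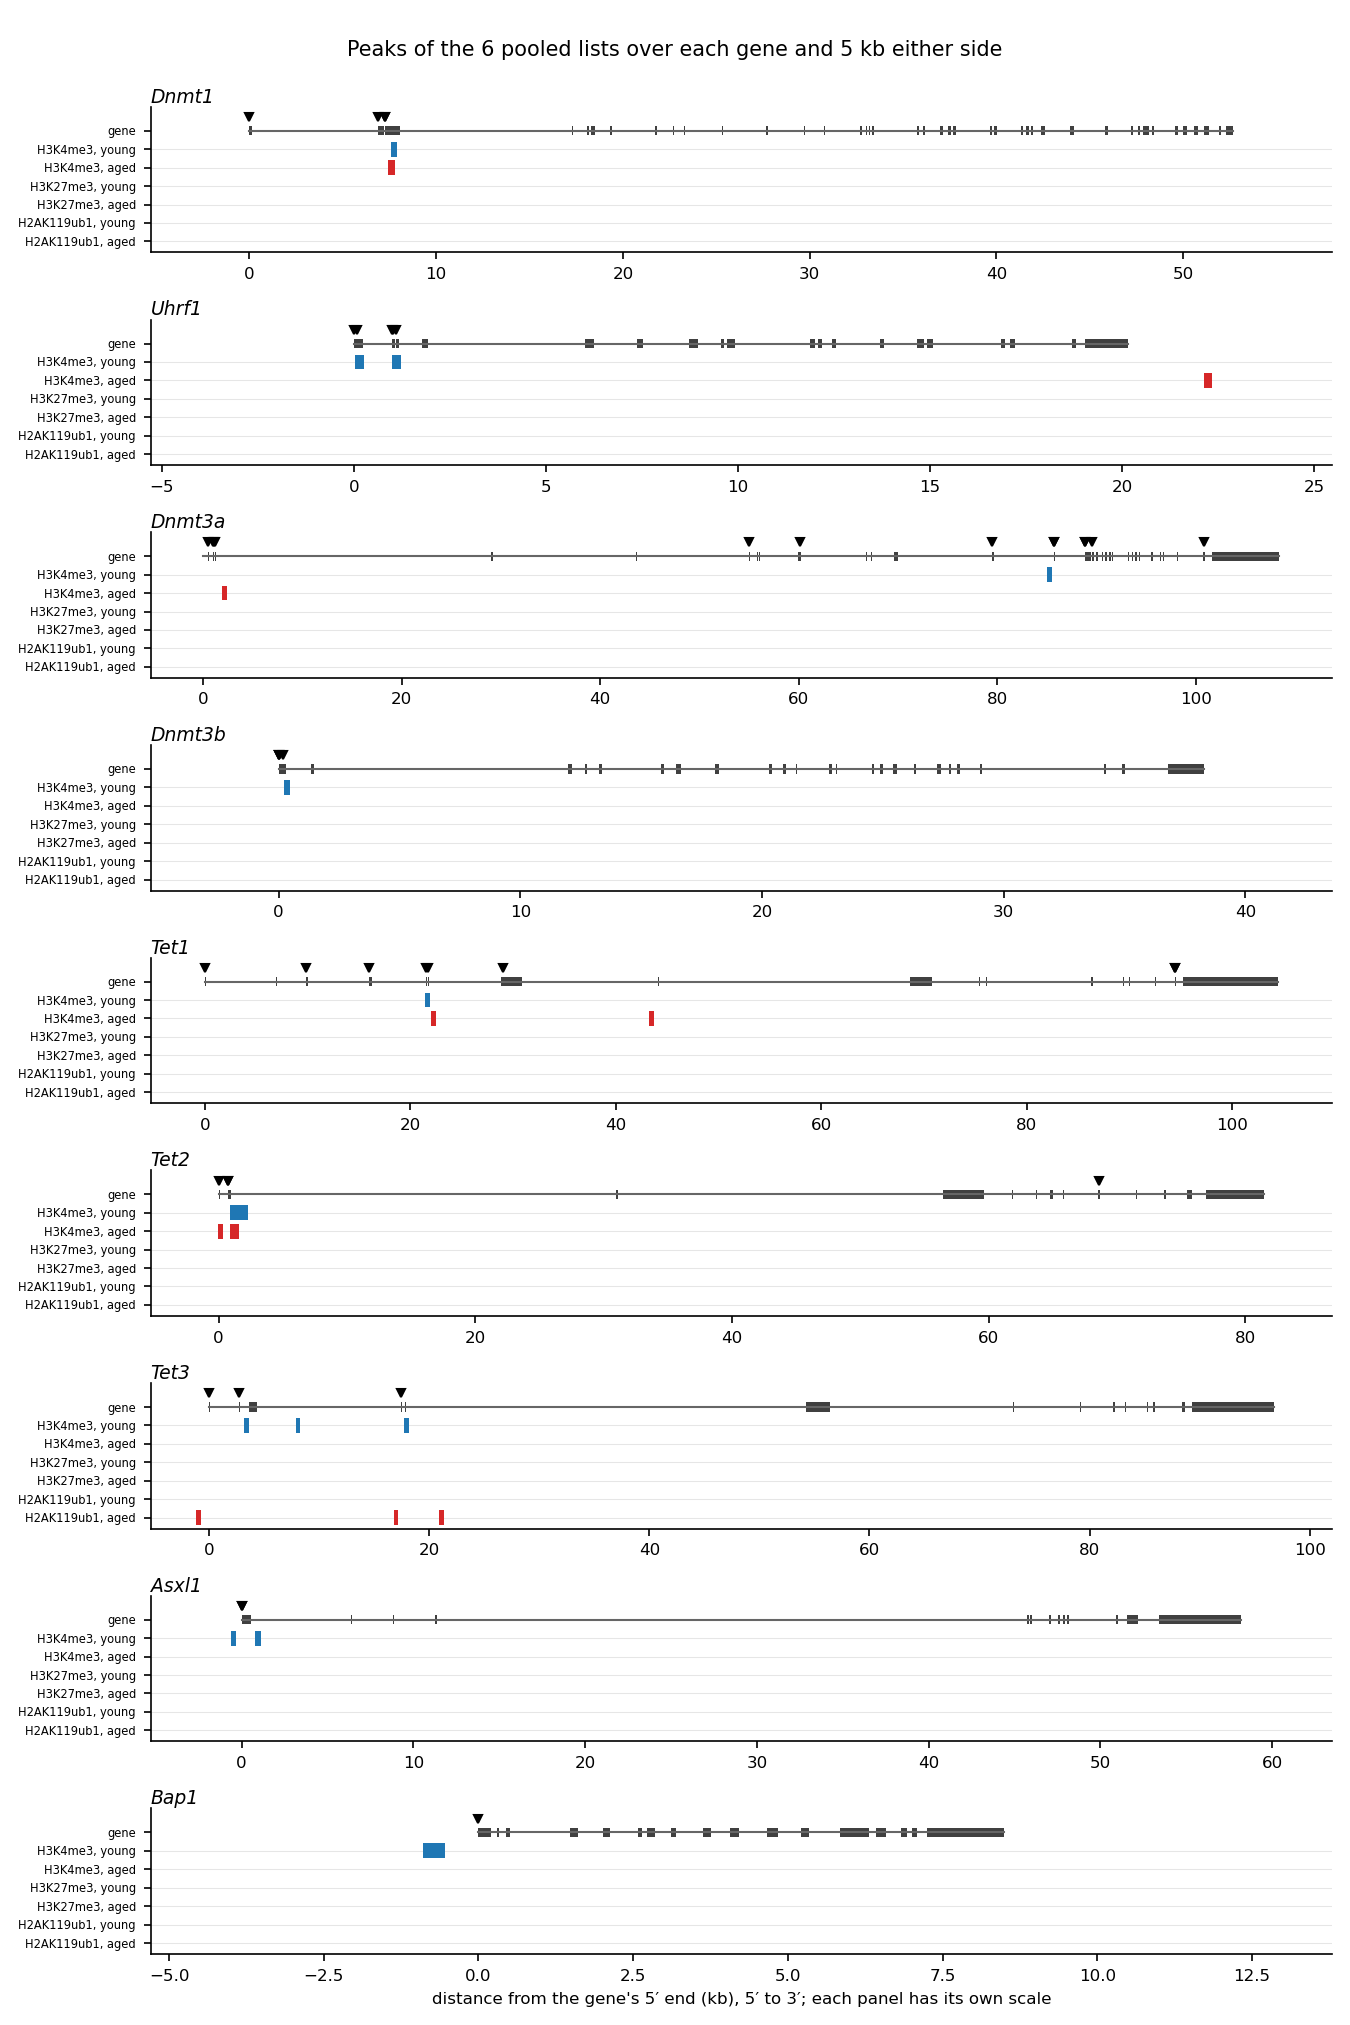
Position of every peak of the 6 lists (rows; blue, young; red, aged) along each gene and 5 kb on either side, in kb from the gene's 5′ end, with exons as dark boxes and protein-coding start sites as triangles; very short peaks are drawn at a minimum width. H3K4me3 lies near the 5′ end in Dnmt3b, Tet2, Asxl1, Bap1 and young Uhrf1, and farther inside Dnmt1, Tet1, Tet3 and young Dnmt3a. The young and aged Dnmt3a peaks are 82819 bp apart. The rows of H3K27me3 are empty in all 9 panels, and H2AK119ub1 appears only for Tet3 in the aged row.

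Of the genes that copy methylation, Dnmt1 had a promoter peak in both lists and Uhrf1 in the young list only. Dnmt1 (chromosome 9, 20907209 to 20959888, minus strand) had a young peak at 20951990 to 20952327 and an aged peak at 20952075 to 20952473, which shared 253 bp in the 5′ UTR. Both lay just downstream of the start of Dnmt1-207, 7.28 kb inside the gene's outermost 5′ end. The fold enrichment over background was 3.03 for the young peak and 3.76 for the aged one. The young peak stood on 20 reads over a background of 5.94, and the aged peak on 16 reads over 3.52. The aged peak thus had fewer reads at its summit, a lower background and a higher fold.

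Uhrf1 (chromosome 17, 56303321 to 56323486, plus strand) had 2 young peaks, each over at least 1 of its start sites. The peak at 56303340 to 56303588 had a fold of 3.03 (20 reads over 5.94) and the peak at 56304309 to 56304546 a fold of 3.83 (17 reads over 3.70). The aged list held no peak at the Uhrf1 promoter. Its only aged peak in the window, at 56325454 to 56325653 (3.76-fold), lay 22.2 kb from the 5′ end, beyond the gene's 3′ end and within 1 kb of a start site of Kdm4b, which encodes a demethylase of histone H3 lysine 9. Arrdc5, an arrestin-domain gene that also starts in the Uhrf1 window, had no promoter peak in any of the 6 lists.

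The de novo methyltransferases differed in where and when they were marked. Dnmt3a (chromosome 12, 3806007 to 3914443, plus strand) had 1 H3K4me3 peak in each list, at different start sites. In young HSCs the peak was at 3891103 to 3891470, in an intron 85.3 kb inside the gene, with its summit 449 bp upstream of the start of Dnmt3a-205. The transcripts that start there code for 689 amino acids. The young peak had a fold of 4.23 (20 reads over 3.96) and ranked 4504 of 11371 by q-value. In aged HSCs the peak was at 3808084 to 3808284, in an intron near the 5′ end, with its summit 1019 bp downstream of the start of Dnmt3a-218, whose product has 908 amino acids. It had a fold of 5.08 (22 reads over 3.52) and ranked 648 of 6723, the highest rank of any peak of the 9 genes in its list. Neither list held a peak at the other's site. The near edge of the aged peak was 924 bp from the start site, so that less than 50% of it lay in the promoter.

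Dnmt3b (chromosome 2, 153649450 to 153687730, plus strand) had a young peak at 153649690 to 153649902, with its summit 184 bp downstream of a start and partly in the 5′ UTR. It had a fold of 4.46 (20 reads over 3.70), and it was the richest of the 9 genes' peaks in G and C (73.2%). The aged list held no peak in the Dnmt3b window.

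Among the dioxygenases, Tet1 and Tet2 were marked at both ages and Tet3 in the young list only. Tet1 (chromosome 10, 62804570 to 62908996, minus strand) had a young peak at 62887156 to 62887472 with a fold of 4.17 (23 reads over 4.75). The aged peak at 62886556 to 62887003 had a fold of 3.98 (17 reads over 3.52) and lay 153 bp from the young one without touching it. A second aged peak at 62865315 to 62865663 (3.54-fold, 15 reads over 3.52) was in an intron 43.5 kb from the 5′ end. The start sites within 1 kb of the young peak and the first aged peak belong to Tet1-207 and Tet1-210, annotated with 47 codons each. With start sites of the GENCODE basic set alone, which lacks them, Tet1 had no promoter peak in either list, and the counts were 8 of 9 genes in young (33.8% of all genes) and 3 of 9 in aged (23.3%). The transcripts with the longest coding parts, Tet1-206 (2039 codons) and Tet1-201 (2007 codons), start 9.88 kb and 29.0 kb from the 5′ end and had no peak within 1 kb.

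Tet2 (chromosome 3, 133463679 to 133545139, minus strand) was the gene with the widest peak. In young HSCs it was a domain of 1355 bp at 133542870 to 133544224, with a fold of 2.80, the lowest of all 12 young promoter peaks, on 24 reads over a background of 7.92. In aged HSCs there were 2 promoter peaks. The one at 133543554 to 133544267 shared 671 bp with the young domain and had a fold of 4.35, also on 24 reads but over a background of 4.75. The other, at 133544854 to 133545085, had a fold of 4.20 (18 reads over 3.52). The reads at the summits of the 2 overlapping peaks were equal and the background differed. Depth per library is not given, so equal reads do not show that the mark was equal at the 2 ages.

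Tet3 (chromosome 6, 83362373 to 83459084, minus strand) had the highest young folds and no aged H3K4me3. The peak at 83441019 to 83441220 (4.89-fold, 22 reads over 3.70) lay 455 bp downstream of the start of Tet3-202, which codes for 1668 amino acids. The peak at 83455539 to 83455822 (4.68-fold, 21 reads over 3.70) lay 570 bp downstream of Tet3-203, which codes for 1803. One more peak, at 83450863 to 83451127 (3.63-fold, 17 reads over 3.96), was intronic and outside the promoters.

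The deubiquitinase pair was marked in young HSCs only. Asxl1 (chromosome 2, 153345829 to 153404007, plus strand) had a peak at 153345212 to 153345479, ending 350 bp upstream of its start (3.83-fold, 17 reads over 3.70). Its second peak, at 153346637 to 153346976, began 792 bp downstream in the first intron (3.75-fold, 25 reads over 5.94), the highest pileup of the 9 genes. Bap1 (chromosome 14, 31251450 to 31259944, plus strand) had 1 peak, at 31250557 to 31250903, 547 bp upstream of its start (3.83-fold, 17 reads over 3.70). Bap1 shares this region with the divergent gene Phf7, a PHD-finger gene whose start lies 133 bp away, and the peak was at the promoters of both. The mark at this peak cannot be assigned to one of them. No aged peak was found for Asxl1, Bap1 or Phf7.

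**Figure D2:**
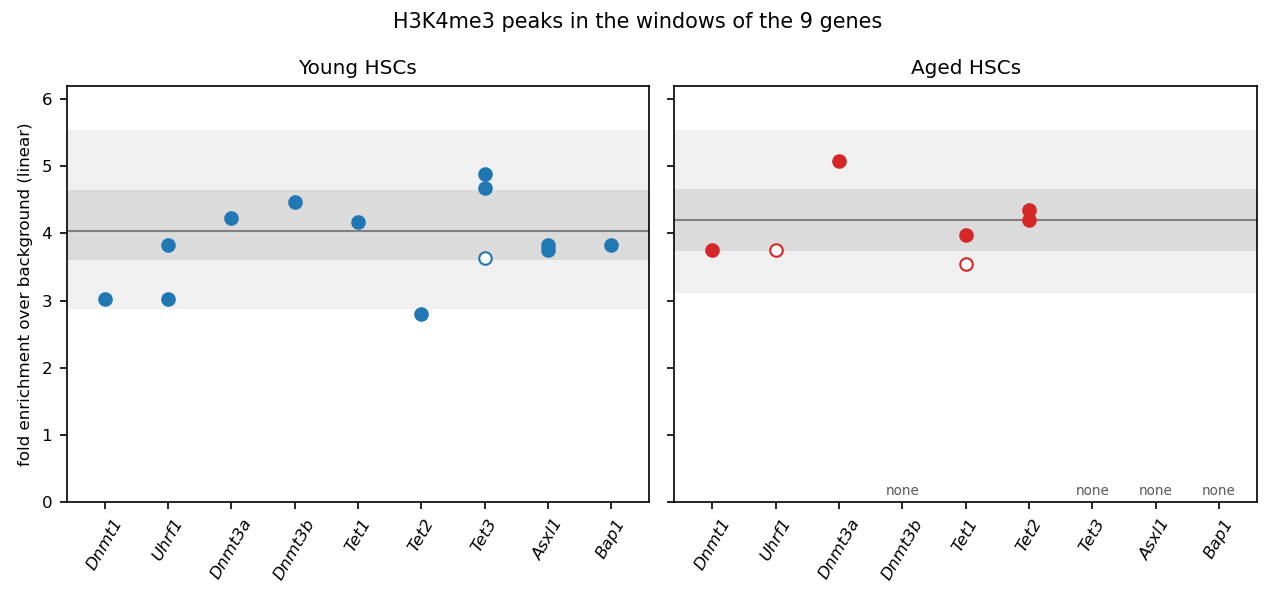
Fold enrichment of each H3K4me3 peak in the windows of the 9 genes, young HSCs left and aged HSCs right; filled points are peaks at a promoter, open points peaks elsewhere, and the line, dark band and light band are the median, the 25th to 75th and the 5th to 95th percentile of all peaks of the list. The young promoter peaks run from 2.80 (Tet2) to 4.89 (Tet3) and the aged from 3.76 (Dnmt1) to 5.08 (Dnmt3a).

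The fold of the young peak overlapped between the genes that were listed in aged HSCs and those that were not. Taking the highest promoter peak of each gene, the 4 genes marked at both ages had young folds of 2.80 (Tet2), 3.03 (Dnmt1), 4.17 (Tet1) and 4.23 (Dnmt3a), and the 5 marked in young only had 3.83 (Uhrf1, Asxl1 and Bap1), 4.46 (Dnmt3b) and 4.89 (Tet3). The 2 lowest folds, of Tet2 and Dnmt1, stood on 24 and 20 reads over the high backgrounds of 7.92 and 5.94. In reads at the same summits, the genes marked at both ages had 20 to 24 and the others 17 to 22, with 17 for Uhrf1, Asxl1 and Bap1. These summits were picked by fold. Asxl1 and Uhrf1 each had another young promoter peak with a lower fold and more reads, 25 and 20. Taking the promoter peak with the most reads, the ranges were 20 to 24 and 17 to 25, so the reads overlapped as well. The median of the 9 genes was 3.83 against 4.25 for all genes with young promoter H3K4me3, and that of the 4 aged genes 4.17 against 4.24. The young Tet3 value was above that of 76.9% of the marked genes and the aged Dnmt3a value above 83.5%.

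**Figure D3:**
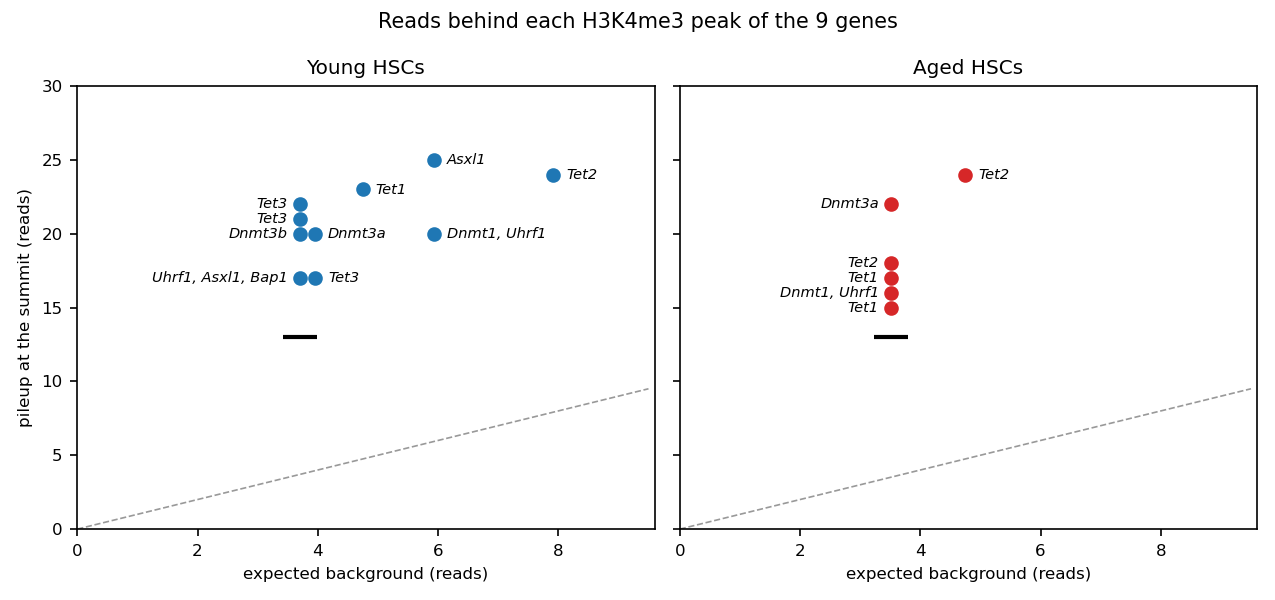
Reads piled up at the summit of each H3K4me3 peak of the 9 genes against the background expected there, young left and aged right; the short black bar is the lowest pileup listed at the lowest background, and the dashed line marks equality. The young peaks stand on 17 to 25 reads and the aged peaks on 15 to 24, all above the 13 reads of the bar. The bar applies at the lowest background only and gives no margin for peaks at a higher background.

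These peaks rest on few reads. The background went down to 3.70 reads in young and 3.52 in aged HSCs, and at that background the lowest pileup listed was 13 reads at both ages. The median pileup over all peaks was 20 reads in young and 19 in aged HSCs. The young promoter peaks of the 9 genes stood on 17 to 25 reads. When the young list was cut to its 6723 highest-ranked peaks, as many as the aged list held, promoter H3K4me3 was found for 5 genes (Asxl1, Dnmt3a, Dnmt3b, Tet1 and Tet3) against 23.8% of all genes. With equal numbers of peaks the counts were therefore 5 of 9 in young and 4 of 9 in aged HSCs. Dnmt3a and Tet1 were then in both lists, Asxl1, Dnmt3b and Tet3 in the young list only, Dnmt1 and Tet2 in the aged list only, and Uhrf1 and Bap1 in neither, so the order of the ages turned round for Dnmt1 and Tet2 under this setting. What made the lists differ in length was not tested.

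No H3K27me3 region was listed for the 9 genes at either age. No region was found at a promoter in young (16.5% of all genes) or aged HSCs (8.58%), nor in any of the windows, where 27.8% of all genes had one in the young list and 16.5% in the aged list. For genes at least as long as Bap1 these window shares were 30.4% and 18.5%. The nearest H3K27me3 region was 40.8 kb (Dnmt3a) to 237 kb (Asxl1) from the gene in the young list, with a median of 77.3 kb against 43.8 kb for all genes. It was 40.8 kb (Dnmt3a) to 305 kb (Bap1) away in the aged list, with a median of 146 kb against 122 kb. In young HSCs 8 of the 9 genes were farther from the mark than the median gene, the exception being Dnmt3a. Of the aged distances, 6 of 9 were above the median.

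H2AK119ub1, the mark that the Asxl1 and Bap1 pair removes, was found at Tet3 alone. None of the 9 genes had it in the young list, at a promoter (2.10% of all genes) or in the window (5.99%). In the aged list 1 of 9 had it at a promoter (14.6%) and 1 of 9 in the window (29.0%, and 33.0% of genes at least as long as Bap1). The Tet3 regions were 3. The region at 83441946 to 83442251 (3.00-fold) ended 271 bp upstream of the start of Tet3-202, and the region at 83459767 to 83460268 (3.03-fold) lay outside the gene, 683 bp upstream of Tet3-204. The region at 83437879 to 83438078 (3.76-fold, above 92.1% of the list) was not at a promoter. Tet3 was thus listed with H3K4me3 in young HSCs only and with H2AK119ub1 in aged HSCs only. The 2 promoter regions were low in the list, at a −log10 q of 1.59 and 1.27, and neither was left when regions of at least 2 were kept, nor when the aged list was cut to the length of the young one. The nearest aged H2AK119ub1 region of the other genes was 20.0 kb from Uhrf1, 21.7 kb from Bap1, 31.1 kb from Dnmt1, 41.4 kb from Dnmt3b, 70.4 kb from Dnmt3a, 81.6 kb from Tet1, 92.2 kb from Asxl1 and 523 kb from Tet2, around a median of 39.4 kb for all genes.

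The patterns over the 6 lists were shared with many other genes. Promoter H3K4me3 at both ages and no Polycomb mark, the pattern of Dnmt1, Dnmt3a, Tet1 and Tet2, was found in 3312 further genes (15.2%), among them Chek2, D2hgdh, Ehmt2, Etv6, Foxk1 and Idh1. Young H3K4me3 alone, the pattern of Dnmt3b, Uhrf1, Asxl1 and Bap1, was found in 2800 (12.8%), among them Asxl2, Calr, Crebbp, Cux1, Cxxc1 and Cxxc5. The Tet3 pattern was found in 318 (1.46%), of which Notch1, Rybp, Setbp1 and Smc3 belonged to the pathway lists below.

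The 3 lists of pathway genes, none holding the 9, were read the same way. They overlap in part. Idh1, Idh2 and Zbtb33 are in both the methylation and the clonal hematopoiesis lists, and Ogt is in both the methylation and the deubiquitinase lists. Of 35 genes of the DNA methylation machinery, 23 (65.7%) had promoter H3K4me3 in young HSCs and 13 (37.1%) in aged HSCs, beside 34.3% and 23.7% of all genes. It was in both lists for 10, in young only for 13 and in aged only for 3, beside 17.9%, 16.4% and 5.81% of all genes. The young-only genes with the highest folds were the H3K9 methyltransferase Ehmt1 (7.06), the CpG-island reader Kdm2b (4.89), Cxxc5 and Gadd45b (4.68 each), Usp7 (4.64), which deubiquitinates Dnmt1 and Uhrf1, and the methyl-CpG reader Zbtb33 (4.46). The aged-only genes were Ahcy (5.97), which clears the S-adenosylhomocysteine left by methylation, Dppa3 (4.24), which keeps Uhrf1 off chromatin, and Gadd45a (3.72). Tdg, the glycosylase that removes oxidised methylcytosine, had a fold of 4.68 in young and 4.20 in aged HSCs, and Idh1, which makes the cofactor of the TET enzymes, 4.84 and 5.75. Either Polycomb mark was at a promoter, at either age, for 4 of the 35 (11.4%), beside 23.4% of all genes. Cxxc4 (3.12-fold) and Ogt (3.49-fold) had H3K27me3 in the young list, Smug1 (3.14-fold) had H2AK119ub1 in the aged list, and Kdm2b had H2AK119ub1 at both ages (3.65-fold in young and 3.08-fold in aged HSCs).

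**Figure D4:**
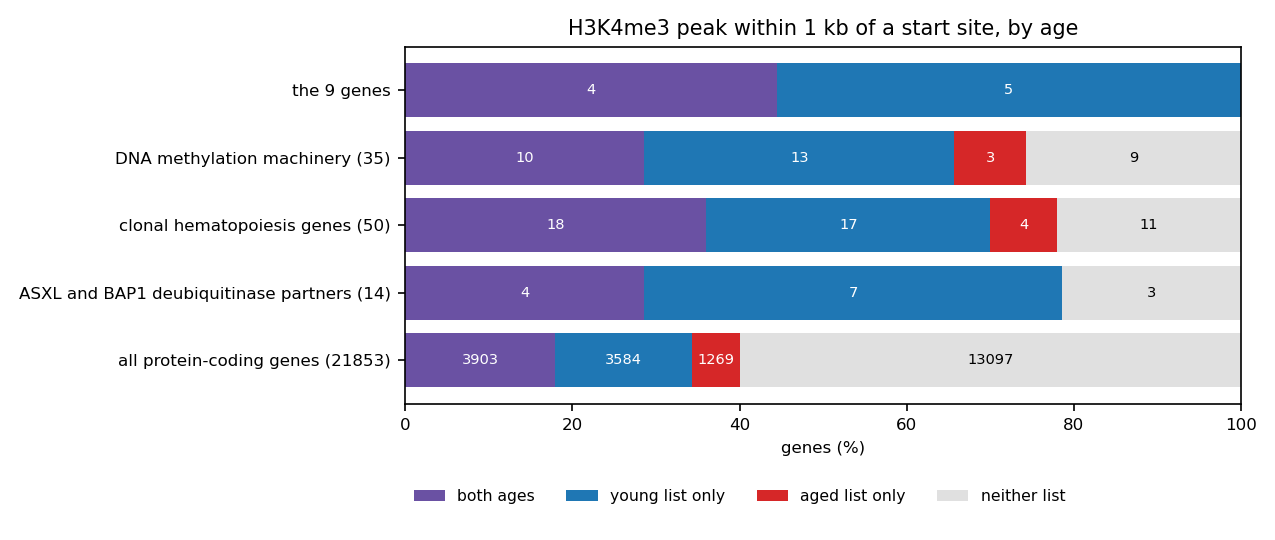
Share of genes with an H3K4me3 peak within 1 kb of a start site in both lists, the young list only, the aged list only or neither, for the 9 genes, the 3 pathway lists and all protein-coding genes; numbers in the bars are genes. All 9 genes are marked in young HSCs and 4 of them in both, and the pathway lists hold a larger marked share than the 21853 genes.

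Of the 50 listed genes mutated in clonal hematopoiesis and myeloid neoplasms, 35 (70.0%) had promoter H3K4me3 in young and 22 (44.0%) in aged HSCs. It was in both lists for 18, beside the same 34.3%, 23.7% and 17.9% of all genes. It was in the young list only for 17 (16.4% of all genes), led by Calr (6.05), Ep300 (5.04), Cux1 (4.69), Crebbp and Zbtb33 (4.46 each) and Gata2 (4.44). It was in the aged list only for 4 (5.81% of all genes), the Polycomb subunit Eed (6.41), Cbl and Ctcf (5.31 each) and the stem cell factor receptor Kit (4.42). Polycomb marks were at the promoters of 12 of the 50 (24.0%), close to the 23.4% of all genes. H3K27me3 was there in the young list for 6 of the 50 (12.0%), beside 16.5% of all genes. They were Bcor, Bcorl1, Brcc3, Cebpa, Flt3 and Gnas, at 2.85-fold (Gnas) to 3.51-fold (Bcorl1). Bcorl1 (3.21-fold) and Gnas (3.11-fold) had it in the aged list too, 4.00% of the 50 beside 8.58% of all genes. Aged H2AK119ub1 was at 9 of the 50 (18.0%) beside the 14.6% of all genes, among them Atm, Bcor, Bcorl1, Cebpa, Notch1, Runx1, Setbp1 and Smc3, with folds from 2.97 (Smc3) to 3.97 (Notch1). None of the 50 had promoter H2AK119ub1 in the young list, beside 2.10% of all genes.

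Of 14 partners of the deubiquitinase and its substrate mark, 11 (78.6%) had promoter H3K4me3 in young and 4 (28.6%) in aged HSCs, beside 34.3% and 23.7% of all genes, and all 4 were among the 11. The young-only genes were Rybp (5.65), a subunit of the ubiquitin-placing complex, Ogt (4.44), the BAP1 partner Hcfc1 (4.25), Asxl3 (4.04), Asxl2 (4.03), the ubiquitin ligase Ring1 (3.83) and Mbd6. The other ligase gene, Rnf2, was marked at both ages (4.74 and 3.98). Aged H2AK119ub1 was at 5 of the 14 (35.7%, beside 14.6% of all genes), Asxl3 (3.14-fold), Foxk2 (3.63-fold), Kdm1b (3.19-fold), Rybp (3.21-fold) and Ube2o (3.40-fold). Young H3K27me3 was at 2 of the 14 (14.3%, beside 16.5% of all genes), Asxl3 (3.50-fold) and Ogt (3.49-fold). The 3 lists were chosen by name, and their shares were not tested against those of all genes.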

How the data were processed

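ChIP-seq of H3K4me3, H3K27me3, H2AK119ub1 and input was done on sorted HSCs of young and aged mice, 2 libraries in each of 8 groups. Chromatin was cross-linked, digested with micrococcal nuclease and sonicated. By the study's methods and the submitters' processing notes, reads were aligned to mm10 with Bowtie2 and peaks were called with MACS2 2.2.6. The authors deposited 1 pooled list per mark and age, narrow peaks for H3K4me3 and broad regions for the others, with thresholds of 0.05 (narrow, q-value) and 0.1 (broad) carried in the peak names. Each deposited peak has a fold enrichment (a ratio of pileup to background), a −log10 p and a −log10 q, and a deposited score that was not used. Depth per library is not given in the sources used here. From fold and p, the pileup and background of each H3K4me3 peak were recovered, to within 0.001 in −log10 p for 100% of peaks, taking the fold as pileup plus 1 over background plus 1. These are reads as the caller scaled them and carry no replicate error.

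Gene models were those of GENCODE M21, with 21853 protein-coding genes and 54361 start sites of protein-coding transcripts on chromosomes 1 to 19, X and Y. An overlap of at least 1 bp between a peak and a promoter, or a window, counted as a call. The same count was made over all genes. With 1 list per condition no test was run. Sequences were read from GRCm38, the assembly that mm10 names. Work was done in python 3.11.15 with pandas 2.3.3, pysam 0.24.0 and samtools 1.23.1, and the overlap and recovery steps were tested on simulated data. The members and the gene lists were chosen with earlier results of these data known. Genes were named if they were among the 9, shared a peak with one or started in its window, carried a Polycomb mark within a list, led a list (up to 6 per list and direction) in a peak of 1 age only, or shared a pattern with one of the 9 (up to 6, alphabetical); Tdg, Idh1, Rnf2, Mbd6 and the markers named were added as background. Some genes that this rule names are not reported here. Alternatives were a stricter q, equal numbers of peaks, other promoter and window widths, other start sites and a 50% overlap.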

Additional observations from a re-analysis of the deposited data

How the results depend on the processing

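Of 60 values recomputed under other settings, 8 moved by more than 1.5 times. Of the other 52, 30 were counts of 0 that stayed at 0, some of which, under shorter lists, could not have risen, and 22 were counts above 0. With a −log10 q of at least 4, H3K4me3 was found in young HSCs at a promoter of 5 genes and in the window of 5, in place of 9, and in aged HSCs at a promoter of 2 (Dnmt3a and Tet2) and in the window of 2. With the same number of peaks at both ages, the young counts were 5 and 5, and Dnmt1 and Tet2 had promoter H3K4me3 in the aged list only. Aged H2AK119ub1 at a promoter fell from 1 gene (Tet3) to 0 with a −log10 q of at least 2 and to 0 with the same number of regions at both ages. All of these settings shorten a list. With 50% of a peak inside the promoter, aged H3K4me3 was found at 3 genes, without Dnmt3a. With the gene body alone, the young window count was 8, without Bap1. The GENCODE basic start sites, a setting chosen after seeing the data, took Tet1 from both counts. No H3K27me3 region appeared under any setting tried. No paired analysis was possible because the lists pool the replicates. The H3K4me3 peaks of these genes stand on 15 to 25 reads. Depth per library is not given in the sources used here, and its part in the counts was not tested.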

Other observations

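The peaks of the 9 genes differed in base composition. The observed over expected CpG frequency of the young H3K4me3 peaks ran from 0.132 (the intronic Tet3 peak) to 0.950 (Dnmt3b), around a median of 0.604 for the whole young list. The other Tet3 peak near Tet3-203 had 0.202, while the Tet3 peak near Tet3-202 had 0.776. In the aged list the values ran from 0.318 (the intronic Tet1 peak) to 0.910 (Dnmt3a), around a median of 0.619. The Tet3 H2AK119ub1 regions had 0.140, 0.384 and 0.133, beside a median of 0.240 for the aged list.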
